A study of Homo sapiens with 4 samples.

Results

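C19MC is the large microRNA (miRNA) cluster of human chromosome 19. It was read here through 35 assays of its mature miRNAs, chosen by name from the 377 human miRNA assays of a TaqMan array card: miR-512 and miR-515 to miR-525 with their letter variants as far as the card carries them, and miR-526b. The samples came from RPMI8226 cells, an established line derived from a human multiple myeloma, a cancer of plasma cells, after 24 h of culture at 20% oxygen (normoxia) or 1% oxygen (hypoxia). At each oxygen level the cells themselves and the exosome fraction of their medium were measured, which makes 4 groups of 1 sample each. Exosomes are small vesicles that cells release, and the fraction was obtained by polymer precipitation of 5 ml of cleared and filtered medium, which enriches vesicles without separating them from all else in the medium. No genotype, transgene or further treatment is labelled, and separate cultures behind a sample are not stated. With 1 sample per group no difference between groups has a replicate error, so no test was made and no p-value is given.

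miRNAs are short RNAs that guide silencing proteins to messenger RNAs, mostly through pairing of the seed, bases 2 to 8 counted from the 5′ end. C19MC is a primate-specific, imprinted cluster of many related hairpin genes that is transcribed from the paternal copy mainly in the placenta, where trophoblast cells also release its miRNAs in vesicles into maternal blood. It is largely silent in most adult tissues, blood cells among them. A hairpin can give a miRNA from its 5′ arm (5p) and from its 3′ arm (3p).

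The mature sequences below come from RefSeq (GRCh38.p14), which gave a sequence for 33 of the 35 members. Names without an arm were taken as the main strand of the hairpin. The seed is in capitals. These 11 are shown because the results turn on them: miR-520e, the member with the lowest threshold cycle, with its near copy miR-520b, the miR-517 trio, miR-519a with its relative of the same seed, miR-519c-3p, and the other members that were measured at both oxygen levels in the exosome fraction and have a sequence in the table.
miR-520e: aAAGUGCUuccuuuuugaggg
miR-520b: aAAGUGCUuccuuuuagaggg
miR-517a: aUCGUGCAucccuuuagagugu
miR-517b: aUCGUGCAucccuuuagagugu
miR-517c: aUCGUGCAuccuuuuagagugu
miR-519a: aAAGUGCAuccuuuuagagugu
miR-519c-3p: aAAGUGCAucuuuuuagaggau
miR-519d: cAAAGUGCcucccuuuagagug
miR-518b: cAAAGCGCuccccuuuagaggu
miR-512-3p: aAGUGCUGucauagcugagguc
miR-516b: aUCUGGAGguaagaagcacuuu

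The members are close relatives in sequence. miR-520e and miR-520b differ by 1 base (U16A, miR-520e first, counted from the 5′ end), and miR-517a and miR-517c by 1 base (C12U). The table gives miR-517a and miR-517b the same mature sequence. miR-519a and miR-519c-3p differ at 3 positions (C11U, U20G and G21A). The motif UUUAGAG, which lies near the 3′ end of many members, occurred in 14 of the 33 member sequences, against 0.844% of the 2370 mature human sequences in the same table. AAGUGC, the core of the seed of several miR-520 and miR-519 members, occurred in 10 of the 33 against 1.65%, and GCACUUU, found at the end of 5p members such as miR-516b, in 8 of the 33 against 0.844%. All motifs were searched on the miRNA strand, and AAGUGC is the reverse complement of the start of GCACUUU. The mature members lie on the plus strand at chr19:53666692-53762418 of GRCh38.p14, and miR-520e at chr19:53675764-53675784. The files do not state how far an assay also reads a near-identical relative.

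Each assay gives a threshold cycle (Ct), the cycle of the PCR in which the fluorescence of a well first passes a set level; a lower Ct means more template. No Ct exceeds 35, and a value of 35 was taken as a ceiling, that is, as not detected. Levels of different assays are not set against each other as amounts, because each assay has its own efficiency. Only the exosome products were pre-amplified before the card, and among the 138 miRNAs under Ct 35 in all 4 samples the median Ct was 30.9 and 31.0 in the cells and 24.0 in both exosome samples. The 6 listed miRNAs of blood and lymphoid cells, among them miR-142-3p and miR-150, were under Ct 35 in all 4 samples. This was not particular to that list. In each sample 5 of the 6 listed epithelial miRNAs were under it too, as was the endothelial miR-126. Of the 2 listed red cell miRNAs 1 was seen, in the normoxic exosome fraction only. The hypoxia-induced miR-210 had a Ct of 31.0 in normoxic and 27.4 in hypoxic cells. In the exosome fraction it was at 23.99 in normoxia and 23.7 in hypoxia. Values close to a whole cycle were common: 63.4% of all 757 miRNA values under 35 lay within 0.1 of a whole cycle, and 16 of the 26 values of C19MC members did. Just below a whole cycle were 422 of the 757 and 14 of the 26.

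In the cells C19MC was nearly undetected. Of the 35 members 3 were under Ct 35 in normoxic cells and 1 in hypoxic cells, while the other 342 miRNA assays were under it in 46.5% and 45.0% of cases (8.57% and 2.86% of members). Those seen were miR-520e in both samples, and miR-517c and miR-525-3p in normoxia only. The latter pair stood close to the ceiling, miR-517c at Ct 34.5 and miR-525-3p at 34.99.

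miR-520e stood apart from the rest of its cluster in cells. Its Ct was 25.8 in normoxic and 27.0 in hypoxic cells. The hypoxic value lay within 0.1 of a whole cycle, and the normoxic one did not. Only 14 of the 162 miRNAs detected in normoxic cells had a lower Ct, and 26 of the 155 in hypoxic cells. Normalized to U6, a small nuclear RNA used as the invariant control for cells, miR-520e was 2.31-fold lower in hypoxia (log2 change -1.21). The Ct of U6 was 18.82 ± 0.15 in normoxia and 18.81 ± 0.12 in hypoxia (SD over n = 4 wells on 1 card each). This spread covers repeat wells of U6 alone, and miR-520e itself has no repeat well, culture or card. At least 2-fold lower were 6.12% of the 147 miRNAs detected in both cell samples, and at least 2-fold higher 7.48%. The authors' deposited table gives miR-520e a ratio of 0.433 in cells.

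No other member of the cluster could be compared in cells. For miR-517c, seen in normoxia only as 3.98% of all 377 assays were, the ceiling allows only the statement that it was at least 1.43-fold lower in hypoxia. For miR-525-3p the bound is 1.01-fold. No member was seen in hypoxic cells only (2.12% of all assays were).

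**Figure D1:**
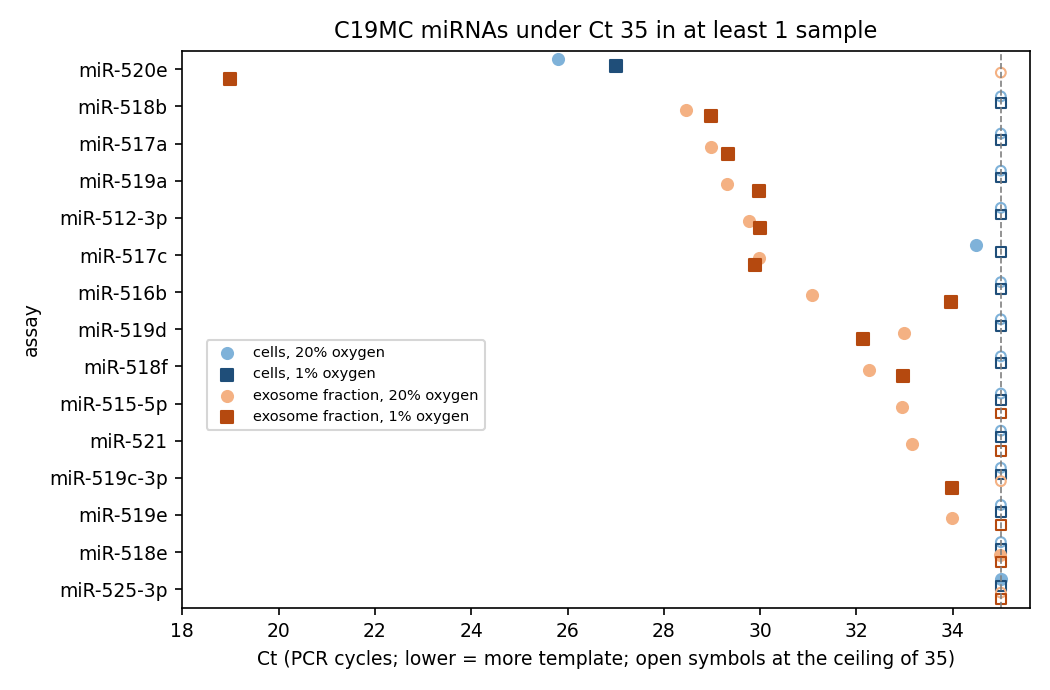
Ct in PCR cycles (x axis, lower means more template) of the 15 C19MC miRNAs under Ct 35 in at least 1 of the 4 samples, 1 symbol per sample, open at the ceiling of 35. miR-520e is at 25.8 and 27.0 in cells and at 18.98 in the hypoxic exosome fraction, but at the ceiling in the normoxic one; the other members seen lie at 28.5 or above.

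In the exosome fraction more of the cluster was seen. Of the 35 members 12 were under Ct 35 in normoxia and 10 in hypoxia (34.3% and 28.6%), against 61.1% of the other assays in both samples. Over all 4 samples 15 members (42.9%) were seen at least once, against 69.0% of the other assays, and 20 members were at the ceiling throughout. The members seen in normoxia had Ct values from 28.5 to 34.99 with a median of 31.7, while the other detected miRNAs had a median of 26.8. Without miR-520e, the hypoxic exosome fraction had 9 members and the hypoxic cells 0.

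The larger number in the exosome fraction came with a lower limit of detection there, and most of these members had no bound on their level relative to the cells. Measured from the median of the 138 miRNAs seen in all samples, the ceiling lay 4.09 cycles above the median in normoxic cells and 11.0 cycles above it in the normoxic exosome fraction. The 11 members seen in the normoxic exosome fraction but not in normoxic cells lay 4.49 to 11.0 cycles above the exosome median. All 11 were past the level at which the cell sample could show them, as were all 9 such members in hypoxia (4.99 to 9.99 cycles, with the cell ceiling at 4.03). From the median of the miRNAs under Ct 32 in all 4 samples, 10 of the 11 and 8 of the 9 were past it; the exception was miR-518b, whose exosome level was then at least 1.26-fold that of the cells in normoxia and at least 1.02-fold in hypoxia. From the first median, the same held for 94.5% of the 73 assays of the whole card seen in the exosome fraction only in normoxia and for 90.4% of the 73 in hypoxia. miR-517c, measured on both sides in normoxia, had a level relative to the median that was 5.43-fold lower in the exosome fraction than in cells (log2 difference -2.44, within the range of -6.16 to 4.47 over the 138 miRNAs). It was -1.70 from the median of the miRNAs under Ct 32 in all 4 samples.

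miR-517a, miR-518b, miR-512-3p and miR-519a were seen at both oxygen levels in the exosome fraction and at the ceiling in both cell samples. So were miR-516b, miR-518f and miR-519d, at a higher Ct. miR-518b had a Ct of 28.5 in normoxia and 29.0 in hypoxia, and miR-517a one of 29.0 and 29.3. For miR-519a the values were 29.3 and 30.0, and for miR-512-3p 29.8 and 29.99. These 4 were slightly lower in hypoxia after normalization to the spike-in ath-miR159, a plant miRNA added at lysis that had a Ct of 22.9 and 23.0. Their log2 changes were -0.47 for miR-518b, -0.31 for miR-517a, -0.61 for miR-519a and -0.17 for miR-512-3p, all within 2-fold.

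The remaining 4 members measured on both sides spanned a wider range. miR-516b was 7.10-fold lower in hypoxia, with a Ct of 31.1 in normoxia and 34.0 in hypoxia. Among the 8 it was the only member at least 2-fold lower, and it had the lowest log2 change (-2.83) of all 203 miRNAs measured in both exosome samples, of which 3.45% were at least 2-fold lower. No repeat well exists for it, and both of its values lay within 0.1 of a whole cycle. miR-518f was at 32.3 and 32.96 (log2 change -0.65), and miR-517c at 29.98 and 29.9 (0.15).

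miR-519d, whose seed AAAGUGC is that of the miR-17 family, had a Ct of 32.99 in normoxia and 32.1 in hypoxia. It was 1.88-fold higher in hypoxia, the highest among the 8, none of which reached 2-fold higher (3.94% of the 203 did). The 6 other assays on the card matched to that seed were detected in all 4 samples. In the normoxic exosome fraction miR-20a was at 15.7, miR-17 at 15.8, miR-106a at 15.9, miR-93 at 18.7, miR-106b at 20.0 and miR-20b at 20.9. Their log2 changes in that fraction ran from -0.34 for miR-106b to 0.01 for miR-20b.

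Of the 8 members, 6 had a log2 change below 0, as did 58.1% of the 203 miRNAs. The median of the 8 was -0.39, beside -0.07 for all 203. With the median Ct of a sample in place of the spike-in, every log2 change moved by 0.20. The median of the members was then -0.19 and that of all 203 was 0.13, 5 of 8 members and 36% of all miRNAs lay below 0, miR-512-3p changed sign (0.03) and miR-519d passed 2-fold (1.11). Over all 203 the counts at least 2-fold higher and lower went from 8 and 7 to 10 and 6.

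**Figure D2:**
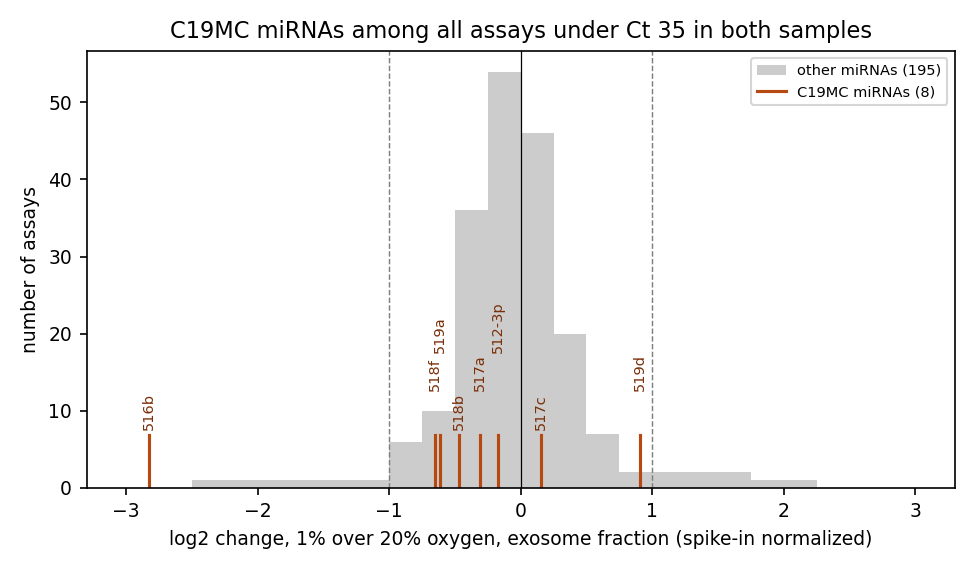
Log2 change of 1% over 20% oxygen in the exosome fraction, normalized to the spike-in (x axis). The grey bars count the 195 other miRNAs under Ct 35 in both samples, the coloured ticks mark the 8 C19MC members, and the dashed lines mark 2-fold. miR-516b at -2.83 lies outside the bars, and the other 7 lie between -0.65 and 0.91.

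The members seen in only 1 exosome sample were mostly near the ceiling. In normoxia only there were 4 of 35 (4.77% of all assays): miR-515-5p at Ct 32.95, miR-521 at 33.1, miR-519e at 34.0 and miR-518e at 34.99. Against the ceiling, miR-515-5p was at least 3.99-fold, miR-521 at least 3.48-fold and miR-519e at least 1.94-fold lower in hypoxia, and miR-518e allows no fold. In hypoxia only there were 2 of 35 (4.24% of all assays), miR-519c-3p and miR-520e. miR-519c-3p, which is known to repress the hypoxia-inducible factor HIF1A, was at Ct 34.0, at least 2.11-fold higher than in normoxia.

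miR-520e gave the widest gap of the whole card. It was at the ceiling in the normoxic exosome fraction and at Ct 18.98 in the hypoxic one, where only 13 of the 219 detected miRNAs had a lower Ct. Against the ceiling, with each cycle taken as a doubling, it was at least 68808-fold higher in hypoxia. This bound rests on the single normoxic well at the ceiling, and whether that well worked was not tested. The authors' deposited table gives 68814, a ratio from the same wells with the ceiling as a value, so it adds no separate measurement. The next lowest Ct among the 16 miRNAs seen in the hypoxic exosome fraction only was that of miR-139-3p, at 27.9, and their median was 32.96. A gap of more than 10 cycles between the oxygen levels occurred in 1 assay of the exosome fraction, miR-520e, and in 1 assay of the cells, miR-493, which was at 20.9 in normoxia and at the ceiling in hypoxia. Each of these values is 1 well.

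**Figure D3:**
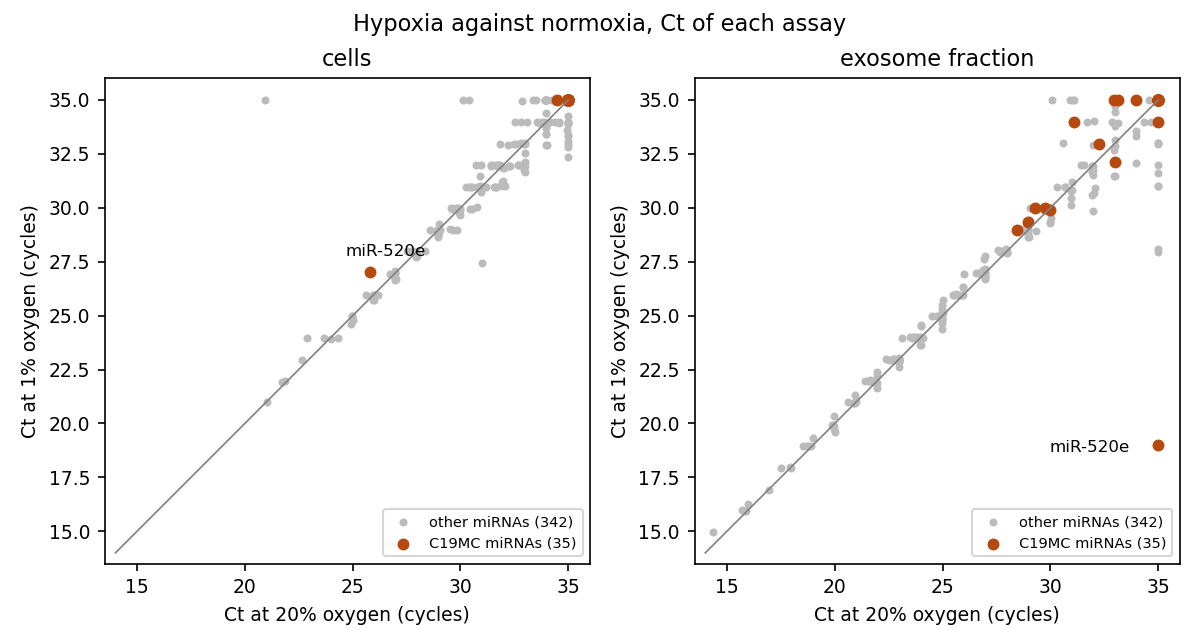
Ct at 20% oxygen (x axis) against Ct at 1% oxygen (y axis), in PCR cycles, in cells (left) and in the exosome fraction (right). Grey points are the 342 other miRNA assays, coloured points the 35 C19MC assays, and the line marks equal Ct; miR-520e lies far below the line in the exosome fraction (35 against 18.98) and slightly above it in cells (25.8 against 27.0).

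The 4 values of miR-520e do not follow one order. In cells it was 2.31-fold lower in hypoxia, while in the exosome fraction it was seen in hypoxia only. Relative to the sample medians, the hypoxic exosome fraction exceeded hypoxic cells 2.06-fold. This log2 difference of 1.04 lay within the range of -6.36 to 3.59 over the 138 miRNAs seen in all 4 samples. It was 2.03 from the median of the miRNAs under Ct 32 in all 4 samples. In normoxia the bound placed the exosome fraction 72448-fold or more below the cells, and 43229-fold or more from the other median. It rests on the same single well at the ceiling. Over the 4 samples, the assays most like it were miR-186, miR-30c and miR-320, with a summed absolute difference of 17.2, 17.3 and 17.4 cycles after subtracting the sample medians. The median distance of a detected assay to its nearest neighbour was 0.50 cycles over 251 assays, and none had a nearest neighbour farther away than miR-520e had. Ct 35 entered these distances as a value.

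The relatives of miR-520e by seed did not share its pattern. On the card the seed AAGUGCU was matched to 3 members (miR-520e, miR-520a-3p and miR-520b) and 5 other assays (miR-302a, miR-302b, miR-302c, miR-372 and miR-373). miR-520b, which differs from miR-520e by 1 base, was at the ceiling in all 4 samples, as were miR-520a-3p and miR-302a. miR-302b was seen in normoxic cells only (33.5), and miR-302c and miR-372 in the hypoxic exosome fraction only (34.95 and 34.96).

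miR-373, a miRNA of embryonic stem cells from the cluster next to C19MC, was the only assay of this seed seen in all 4 samples. Its Ct was 32.99 and 32.5 in cells and 21.6 and 21.96 in the exosome fraction, each with normoxia first. The log2 change of miR-373 was 0.45 for cells, and -0.34 for the exosome fraction. The neighbouring miR-371-3p was at the ceiling throughout. Of the 6 listed miRNAs of embryonic stem cells on the card, 2 were seen in cells at 20% oxygen and 1 at 1% oxygen, and the exosome fraction showed 1 and 3.

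Within the miR-517 trio, miR-517b stood apart from miR-517a and miR-517c in the exosome fraction. miR-517a was seen at Ct 29.0 and 29.3 in the exosome fraction, and miR-517c, 1 base apart, at 29.98 and 29.9. miR-517b was at the ceiling in all 4 samples, although the table gives its mature sequence as that of miR-517a. That match is by name, as the assays' own target sequences are not given. Of the 4 members with the seed AAAGCGC, only miR-518b was seen, while miR-518a-3p, miR-518c and miR-518d-3p were at the ceiling. Both members with the seed AAGUGCA were seen, miR-519a at both oxygen levels and miR-519c-3p in hypoxia only. A total of 180 of the 377 assays could be matched to a seed, so relatives among the others were not looked for.

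Arms were counted among the members only, with no count over the other assays of the card beside them. For 6 hairpin names the card carries both arms, and for none of them were both arms seen. One arm was seen for miR-512 (3p), miR-515 (5p) and miR-525 (3p, in normoxic cells at Ct 34.99), and neither for miR-518a, miR-518d and miR-520a. In the normoxic exosome fraction 8 of the 22 members of the 3p arm and 2 of the 11 of the 5p arm were seen, and in the hypoxic one 8 and 1. The arm was taken from the matched mature name, or set to 3p for miR-518f and miR-522, which have no sequence here. miR-518b and miR-521, whose mature names carry no arm, make up the other 2 members and were left out of both counts. Both sequences contain UUUAGAG. Of these 2, both were seen in the normoxic exosome fraction and miR-518b in the hypoxic one.

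Members were seen in both parts of the cluster. RefSeq places 46 miRNA genes from MIR512-1 to MIR519A2, and 36 of them encode the miRNA of a member assay. Genes were counted by assay name, and a name with copies in several genes was counted at each. MIR517B was thus counted by the assay miR-517b, at the ceiling, although its mature sequence is that of miR-517a. Genes with an assay seen in the exosome fraction numbered 9 of 17 among the first 23 genes of that order and 10 of 19 among the last 23. MIR520E lies between MIR498 and MIR515-1. Of the nearest genes with a member assay on its left and right, miR-512-3p (29.8 and 29.99) and miR-515-5p (32.95 in normoxia only) were seen in the exosome fraction and not in cells. The near copy MIR520B lies between MIR518F and MIR518B, both of which were seen in the exosome fraction, whereas miR-520b was not.

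**Figure D4:**
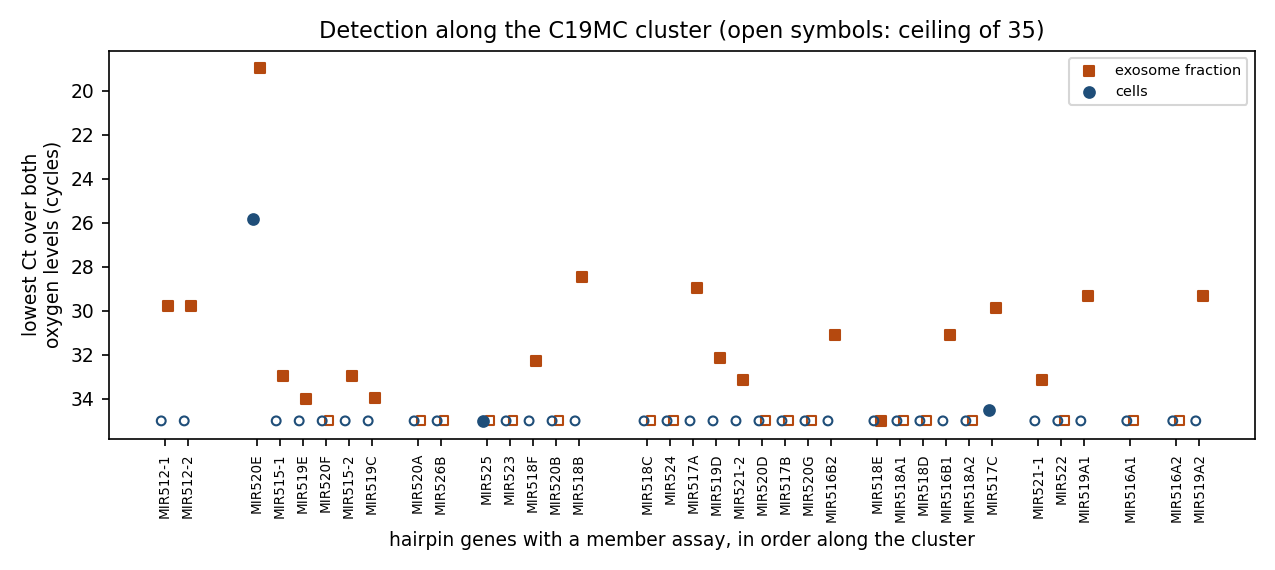
Lowest Ct over both oxygen levels (y axis in PCR cycles, inverted so that more template is up) of the member assays of each of 36 miRNA genes, in gene order along the cluster (x axis), in the exosome fraction (squares) and in cells (circles), open at the ceiling of 35. Genes with an assay seen in the exosome fraction (19 of 36) lie in both parts of the order. They form short runs between runs of genes without one, and MIR520E stands alone at 18.98 and 25.8.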

How the data were processed

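Per the labels' protocols, 3 µl of each 50 µl RNA eluate were reverse transcribed, and exosome products were pre-amplified. One table deposited by the authors holds Ct values, not normalized (384 wells, 1 per miRNA). The other table deposited by the authors holds the ratio of hypoxia over normoxia; per the series' design text it was made with Data Assist 3.1, with a U6 RNA as control for cells and the spike-in for the exosome fraction. Ratios recomputed here from Ct differed from it by at most 0.000356 (log2) for members measured in both samples. The authors' ratios for wells at the ceiling (0.9965 in cells and 1.0376 in the exosome fraction for members at 35 in both) were not used as measurements.

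Log2 changes are negative differences of normalized Ct, so each cycle is taken as a doubling for every assay. An assay seen in 1 sample has a bound against Ct 35. For exosome fraction against cells, the median Ct of the miRNAs seen in all 4 samples was subtracted within each sample. The calculation was tested on simulated data (Python 3.11.15, pandas 2.3.3). A Ct carries no depth, so no counting interval applies. The members and lists were chosen with earlier results of these data known. Every member under Ct 35 in a sample is named; non-members named are controls, miRNAs with a seed of a seen member, neighbouring or marker miRNAs, those most like miR-520e, and miR-493 and miR-139-3p, chosen after their values were seen.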

Additional observations from a re-analysis of the deposited data

Results flagged for a closer look

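miR-520e had a log2 change of -1.21 in cells and one of at least 16.1 in the exosome fraction, so the only sample pair of each compartment differed in opposite directions. miR-517c had a log2 change of -0.51 or lower in cells, a bound against the ceiling, and 0.15 in the exosome fraction. The difference between the compartments was not tested, because each group is 1 sample and each value 1 well.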

How the results depend on the processing

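No paired analysis was possible because each group holds 1 sample and no result comes from a test. With Ct under 32 required, members seen numbered 1 in normoxic cells and 6 in either exosome sample; with Ct under 33 there was 1 in normoxic cells. Leaving out miR-520e, chosen after seeing the data, left 0 in hypoxic cells. In the exosome fraction the median log2 change was -0.19 with the median Ct as normalizer. Then 1 member (miR-519d) was at least 2-fold higher, beside 10 of all 203 miRNAs. At 1.5-fold with the spike-in there were 3 lower members and 1 higher. The share over all assays is not given for Ct 33 or for 1.5-fold, so those counts have no comparison. Relative to the median of miRNAs under Ct 32 in all samples, the exosome fraction exceeded cells by 2.03 (log2) for miR-520e in hypoxia and stood at -15.4 or lower for miR-520e and at -1.70 for miR-517c in normoxia. For miR-520e in cells, the log2 change was -1.36 with RNU44 and RNU48, -1.18 with the median Ct, and between -1.24 and -1.15 without any 1 of the U6 wells. Log2 changes were held against 0.19, the root of the summed squared SDs of the U6 wells in normoxic and hypoxic cells. U6 was at Ct 35 in both exosome samples, so 0.19 holds no error of that fraction. Of 60 alternatives 40 moved by less than 0.19 or, for counts, by at most 1.5 times. The other 20 moved more, and none turned a difference of 2-fold or more. Of the 60, 24 were single-member exosome changes, 16 moving less and 8 more. They repeat a shift shared by all members (0.20 with the median Ct, -0.05 without a normalizer) or the authors' ratio from the same wells. The 60 are thus not independent checks. Signal near the ceiling limits the members above Ct 33.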
